A study of Mus musculus with 4 samples.

Results

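The genes described here are those of the mouse major histocompatibility complex (MHC), whose names begin with H2-, and 10 genes that load, transport or switch on MHC molecules. They were taken as every non-control array probe whose name in the scanner files begins with H2- or is B2m, Tap1, Tap2, Tapbp, Psmb8, Psmb9, Psmb10, Cd74, Ciita or Nlrc5. The rule found 74 probes for 47 gene names among 41174 non-control probes. Of these, 56 probes for 34 gene names were kept because the duplicate arrays of cKO, of WT or of both had them well above background, as were 26070 probes in all. The kept members were 24 class I probes, 14 class II probes, 8 probes of peptide supply and loading genes, 3 of B2m, 1 of Cd74, 1 each of Ciita and Nlrc5, and 4 whose names begin with H2- but that belong to neither class by name.

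The tissue was full-thickness dorsal skin of male C57BL/6 mice aged 42 days, labelled as telogen, when hair follicles rest. The group called cKO carried a conditional knockout of Fgf18, a secreted fibroblast growth factor, in keratin 5-positive epithelial cells, so by design other cells of the skin kept the gene. The group called WT was C57BL/6 without further alleles in the labels. The Cre line is not named. PolyA RNA from 3 mice went into a single pool per group, of which 200 ng were labelled with Cy3, and each pool was read on 2 arrays. Each genotype was thus 1 pool, and all SDs, SEs and p-values here measure the spread between duplicate arrays and not between mice.

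Class I molecules sit on nearly all nucleated cells and show peptides cut from cytosolic proteins to CD8 T cells. Their heavy chain pairs with beta-2 microglobulin (B2m), and the peptides are cut by the proteasome and carried into the endoplasmic reticulum by the Tap transporter. Class II molecules show peptides from endosomes to CD4 T cells and are made mainly by dendritic cells, B cells and macrophages, with Cd74, the invariant chain, as their escort. In skin, Langerhans cells of the epidermis and dendritic cells of the dermis are the main class II carriers, and the lower hair follicle in growth phase is known for low class I display.

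Across probes, the cKO duplicates correlated at r = 0.996 and the WT duplicates at 0.995, and no array of one pool correlated with one of the other above 0.969. Keratin genes of the hair shaft, made by growing follicles, stood far apart despite the shared telogen label. All 7 measured ones were called higher in cKO, with a median log2 change of 8.58. Krt34, Krt85 and Krt86 passed the background filter only through cKO, so their calls are descriptions without a test, and the median includes them. Krt31, Krt33a, Krt33b and Krt35, well above background on all 4 arrays, differed by 7.42, 8.58, 4.09 and 8.40. Another Krt33b probe, which was not counted, differed by 10.98. Fgf18 itself differed by -0.33 on the log2 scale (adjusted p = 0.005, limma) and stayed well above background on all 4 arrays. Krt5, the keratin that marks the targeted cells, differed by -0.09 and Krt14 by 0.31. Levels below are scaled log2 signals, the log2 of the processed signal minus that of the array's 75th percentile, and each difference is cKO minus WT.

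Class II surface molecules were higher in cKO skin, class I genes were on balance slightly lower, and every difference was small. No member was called, where a call needs an adjusted p under 0.05 (limma, Benjamini-Hochberg adjustment over all 26070 kept probes) together with a 1.5-fold difference or more. The background was 4.92% of kept probes called higher and 4.80% called lower. By adjusted p alone, 12 of the 56 members were higher and 18 lower, against 19.2% and 31.1% of all kept probes, and at an unadjusted p under 0.05 the counts were 15 higher and 23 lower, or 26.8% and 41.1%, against 22.7% and 36.2% of all kept probes. The 2 cKO arrays lay wholly above the 2 WT arrays for 21 members and wholly below for 31, and the groups overlapped for 4. Over all kept probes, 32.0% lay above and 47.8% below. Of the 55 members well above background on all 4 arrays, 11 were higher and 18 lower by adjusted p. In whole skin, fewer cells of a type and less RNA per cell cannot be told apart. The split of the 30 members past the adjusted p turned with the scaling: it was 19 higher and 8 lower under quantile normalization and 17 higher and 7 lower when normexp background correction came first. With 1 array left out, the class II median lay between 0.31 and 0.34 and the class I median between -0.15 and -0.13. Fewer members passed the adjusted p in those fits, in both directions, at fewer residual degrees of freedom.

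The classical class II molecules of the mouse are I-A, a pair of the H2-Aa alpha chain and the H2-Ab1 beta chain, and I-E, a pair of H2-Ea and H2-Eb1. H2-Eb1 read 3.47 and 3.46 on the cKO arrays, against 2.98 and 2.97 on the WT arrays. Both cKO arrays were above both WT arrays, and the lowest cKO value was 0.48 above the highest WT value, while duplicates differed by at most 0.011. The difference was 0.49 (SE 0.025), or 1.41-fold higher in cKO, with a limma adjusted p of 0.0029, which is past the p threshold and short of 1.5-fold. Of all kept probes, 7.38% changed at least as far upward. H2-Eb1 was the 1 kept probe of these genes called under any alternative, with a log2 difference of 0.59 after quantile normalization (adjusted p = 0.0028).

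The 2 H2-Aa probes gave the same picture. One read 2.42 and 2.37 in cKO and 1.95 and 1.92 in WT, a difference of 0.46 (SE 0.034, limma adjusted p = 0.0045). The other read 2.27 on both cKO arrays, and 1.91 and 1.90 in WT, a difference of 0.36 (SE 0.025, limma adjusted p = 0.0041). For both probes the cKO arrays lay wholly above the WT arrays, as they did for 32.0% of all kept probes.

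H2-Ab1 was read by 4 probes, all higher in cKO. The probe nearest the gene's start by mm9 position read 2.94 and 2.93 in cKO, against 2.50 and 2.52 in WT. The next read 3.71 and 3.69 in cKO, against 3.23 and 3.25 in WT. The last read 5.65 and 5.64 in cKO, against 5.37 and 5.34 in WT. In order, these differences were 0.42, 0.46 and 0.29, and the limma adjusted p lay between 0.0032 and 0.0067. A probe with no genome position in the files, built on another H2-Ab1 transcript, read 1.83 and 1.76 in cKO, against 1.29 and 1.33 in WT, a difference of 0.48. Across the 7 probes of H2-Aa, H2-Ab1 and H2-Eb1, differences ran between 0.29 and 0.49 with a median of 0.46, all passed the adjusted p (0.0029 to 0.0067), and none overlapped between groups. The median of all kept probes was -0.06, and for 32.0% of them the cKO arrays lay wholly above the WT arrays. With any 1 array left out each of these 7 stayed above 0, and they passed the adjusted p except the last H2-Ab1 probe in 1 of the 4 fits, that without cKO array 1 (adjusted p = 0.052).

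The probes behind these values are shown because class II genes differ much between strains and both H2-Ab1 probes shown read overlapping stretches. The H2-Aa probe lies at chr17:34420627-34420686 on the minus strand, the first H2-Ab1 probe at chr17:34401723-34401782 on the plus strand, and the H2-Eb1 probe within chr17:34452050-34452511 on the plus strand, all on mm9. The second H2-Ab1 probe is the one without a position. Capitals mark the 29 of 31 bases that are identical where the H2-Ab1 probes overlap. All are written as the files give them.
H2-Aa: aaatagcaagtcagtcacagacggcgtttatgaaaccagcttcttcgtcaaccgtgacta
H2-Ab1, first: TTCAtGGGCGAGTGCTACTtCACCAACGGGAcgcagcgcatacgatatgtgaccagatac
H2-Ab1, second: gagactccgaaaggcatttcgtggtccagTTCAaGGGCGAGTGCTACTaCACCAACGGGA
H2-Eb1: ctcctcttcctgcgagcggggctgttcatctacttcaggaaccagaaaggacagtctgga

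The 2 H2-Ab1 probes, which do not match each other at every shared base, differed between groups by 0.42 and 0.48. H2-Ea, the alpha chain of I-E, was not well above background on any array, at -7.30 and -8.05 in cKO and -7.09 and -6.90 in WT. C57BL/6 mice carry a deletion in H2-Ea and make no I-E on the cell surface. H2-Eb2, a further beta chain gene, was likewise not well above background on any array with either of its 2 probes.

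The class II genes that work inside endosomes were less uniform. H2-DM, made of H2-DMa and H2-DMb chains, removes the invariant chain remnant from class II and helps select peptides. H2-O, made of H2-Oa and H2-Ob, holds H2-DM back. H2-DMa read 0.74 and 0.71 in cKO, against 0.52 and 0.58 in WT, a difference of 0.18 (limma adjusted p = 0.025). The H2-DMb1 probes disagreed: one read 3.17 and 3.15 in cKO, against 3.31 and 3.34 in WT (difference -0.17, limma adjusted p = 0.020), and the other 0.34 and 0.35 in cKO, against 0.23 and 0.27 in WT (difference 0.10, adjusted p = 0.065). The H2-DMb genes are close copies, so a probe named for one may read the other.

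H2-DMb2 read -4.71 and -4.78 in cKO, against -5.13 and -5.33 in WT, where it was well above background on 1 of 2 arrays. Its difference was 0.48 at a signal close to background. It passed the filter only through cKO, the group where it was higher, so this difference is a description without a test. H2-Oa differed by 0.19 (adjusted p = 0.030) and 0.16 (adjusted p = 0.066) with its 2 probes. H2-Ob differed by 0.15 (adjusted p = 0.29), and its second probe was not well above background on any array. Over the 6 of these probes that were well above background on all 4 arrays, which leaves out H2-DMb2, the median was 0.15, with 2 higher and 1 lower by adjusted p, against 19.2% and 31.1% of all kept probes.

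Cd74, which escorts class II out of the endoplasmic reticulum, read 5.43 and 5.34 in cKO, against 5.21 and 5.24 in WT. The groups did not overlap, but the difference of 0.16 (SE 0.046) missed the threshold, with a limma adjusted p of 0.060. It passed under 6 of 12 processing alternatives, at 0.33 in both quantile settings and at 0.16 to 0.20 in the others that passed. Ciita, the master switch of class II transcription, read -0.87 and -0.82 in cKO, against -0.92 and -0.95 in WT, a difference of 0.09 (limma adjusted p = 0.10). Over the 14 kept class II probes the median difference was 0.32, with 10 probes higher and 1 lower by adjusted p, against backgrounds of 19.2% and 31.1%. Without H2-DMb2 the median was 0.29, with 9 of 13 higher and 1 lower. With any 1 array left out, 13 of the 14 stayed above 0, while fewer passed the adjusted p.

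Class I genes leaned the other way by a smaller amount. H2-K1 and H2-D1 encode the classical class I heavy chains of this strain. One H2-K1 probe read 6.70 and 6.69 in cKO, against 6.76 and 6.78 in WT. The 4 H2-K1 probes differed by -0.07, -0.08, -0.14 and -0.06, and 1 of them passed the adjusted p (0.025). In all 4 the cKO arrays lay wholly below the WT arrays, as they did for 47.8% of all kept probes.

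One H2-D1 probe read 5.84 and 5.89 in cKO, against 5.99 and 5.98 in WT (difference -0.12, limma adjusted p = 0.052), and the other overlapped between groups (-0.03, adjusted p = 0.81). The median of these 6 classical probes was -0.07, close to the -0.06 of all kept probes. All 6 turned to above 0 under quantile normalization with or without normexp, so the direction of H2-K1 and H2-D1 depended on the scaling.

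The non-classical class I genes of the Q, T and M regions have narrower roles: H2-T23 (Qa-1) is the ligand of inhibitory receptors on natural killer cells, H2-M3 presents formylated bacterial peptides, and H2-T22 is bound by some gamma-delta T cells. H2-M3 read 0.45 and 0.47 in cKO, against 0.69 on both WT arrays, a difference of -0.23 (SE 0.026, limma adjusted p = 0.0090). Its second probe differed by -0.15 and overlapped between groups (adjusted p = 0.33). H2-T22 differed by -0.16, -0.11 and -0.15 with its 3 probes, of which 1 passed the adjusted p (0.024). H2-T23 differed by -0.03 (adjusted p = 0.68) and H2-Q7 by 0.00 (adjusted p = 0.99), and their groups overlapped.

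The 2 H2-Q2 probes differed by -0.14 and -0.24, with adjusted p of 0.036 and 0.010. H2-Bl differed by -0.22 (adjusted p = 0.015). H2-Q5 (-0.09, adjusted p = 0.11), H2-Q8 (-0.37, adjusted p = 0.074) and H2-M10.2 (-0.33, adjusted p = 0.051) did not pass. H2-M10.2 was near background, at -4.85 and -4.94 in cKO and -4.66 and -4.46 in WT.

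H2-Q10, whose product is a class I molecule secreted mainly by liver, was read by 5 probes that disagreed. Of these, 4 were lower in cKO, by differences of -0.13, -0.26, -0.31 and -0.42 (limma adjusted p 0.011 to 0.029), and 1 was higher. The higher one read 0.90 and 0.89 in cKO, against 0.43 and 0.41 in WT, a difference of 0.48 (SE 0.026, limma adjusted p = 0.0030). The largest lower difference came from a probe that read -0.89 and -0.94 in cKO, against -0.55 and -0.44 in WT. The discordant probe is at chr17:35610777-35610836 and was built on a different transcript record than the other 4, which lie between 35607907 and 35611424. With the mean of the gene's probes, H2-Q10 differed by -0.13 (adjusted p = 0.022).

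Class I genes are close copies, and probes named for one can read another, so no single class I name is certain here. As an example, shown because it is an exact match, the H2-Q5 and H2-Q10 probes share 35 bases without a mismatch, set in capitals. The H2-Q5 probe lies within chr17:36246864-36247298 on the minus strand and the H2-Q10 probe at chr17:35610210-35610269 on the plus strand (mm9).
H2-Q5: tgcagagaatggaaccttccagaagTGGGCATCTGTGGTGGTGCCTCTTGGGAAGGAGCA
H2-Q10: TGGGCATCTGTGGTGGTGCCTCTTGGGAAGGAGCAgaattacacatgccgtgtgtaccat

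These probes differed by -0.09 (H2-Q5) and -0.13 (H2-Q10). A H2-Q2 probe and a H2-D1 probe were identical at 47 of 50 shared bases, and differed by -0.14 and -0.12. Over the 24 class I probes the median difference was -0.14 (range -0.42 to 0.48), and 23 were below 0. By adjusted p, 1 was higher and 10 were lower, against backgrounds of 19.2% and 31.1%. In 19 the cKO arrays lay wholly below the WT arrays, in 1 wholly above, and 4 overlapped, against 47.8% below and 32.0% above over all kept probes.

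The class I count depended on the scaling. With 1 array left out, between 20 and 23 of the 24 class I probes stayed below 0. The median then ran between -0.15 and -0.13. Fewer class I probes passed the adjusted p in those fits, which had fewer residual degrees of freedom. Markers of some other skin cells were also lower in cKO, while those of the hair shaft were higher, as given above. Of 6 basal epidermis markers 2 were higher and 0 lower by adjusted p, with a median of -0.09. All 7 skeletal muscle markers were lower by adjusted p, 4 of them called (median -0.69), and their summed linear signal, in units of the array's 75th percentile, was 565 and 564 in cKO, against 799 and 836 in WT. Of 7 endothelial markers 5 were lower by adjusted p and 1 was called (median -0.30, sum 11.1 and 11.3 in cKO, against 13.7 and 13.6 in WT). Of 6 adipocyte markers 4 were lower and 1 higher by adjusted p, with 2 called lower (median -0.26). Their sum was 229 and 228 in cKO, against 222 and 223 in WT. Of that sum Fabp4 gave 138 on both cKO arrays, against 122 and 120 in WT. The rest gave 90.9 and 89.7 in cKO, against 101 and 102 in WT. None of these markers failed the background filter, and their part in the class I difference was not tested. Under quantile normalization 12 of 24 class I probes were above 0, with 5 higher and 7 lower by adjusted p and a median of -0.01. Class II stayed above 0 in 13 of 14 probes there, with 11 higher and a median of 0.46. Over all settings tried, the class II median lay between 0.19 and 0.46 and the class I median between -0.18 and 0.00, nearest to 0 in both quantile settings.

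B2m, the shared light chain of class I, had 3 probes. One read 6.00 and 6.03 in cKO, against 6.22 and 6.26 in WT, a difference of -0.23 (SE 0.030, limma adjusted p = 0.012). The next differed by -0.22 (adjusted p = 0.024) and the third, built on another transcript record, by -0.04 (adjusted p = 0.29). For all 3 the cKO arrays lay wholly below the WT arrays, as they did for 47.8% of all kept probes. The first was at 0.01 after normexp and quantile normalization, where none of the 3 passed.

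Psmb8, Psmb9 and Psmb10 are the catalytic subunits that interferon-gamma brings into the immunoproteasome. Psmb10 read 3.57 and 3.63 in cKO, against 4.003 and 4.03 in WT, a difference of -0.41 (SE 0.035), or 1.33-fold lower in cKO, with a limma adjusted p of 0.0054. Its adjusted p was 0.041 or less with any 1 array left out. Psmb8 was lower with both probes (-0.15 and -0.19, adjusted p 0.036 each), and Psmb9 was higher, at 2.81 and 2.82 in cKO, against 2.68 and 2.72 in WT (0.12, adjusted p = 0.045). Among the 3 subunits, then, Psmb9 was higher while Psmb8 and Psmb10 were lower, but only Psmb10 passed the adjusted p under all processing alternatives. Psmb9 did not pass in 4 of 12, and the Psmb8 probes not in 6 of 12 and 4 of 11. With 1 array left out, the difference of Psmb9 lay between 0.10 and 0.14. Those of the Psmb8 probes lay between -0.22 and -0.12.

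Tap1 and Tap2, which pair to form the peptide transporter, did not pass the test. Tap1 read 0.36 and 0.35 in cKO, against 0.34 on both WT arrays (difference 0.01, adjusted p = 0.71), and Tap2 differed by 0.08 (adjusted p = 0.24). Tapbp, or tapasin, which bridges Tap and class I, had 2 probes that disagreed, at -0.16 (adjusted p = 0.026) and 0.09 (adjusted p = 0.23). Nlrc5, the class I counterpart of Ciita, differed by -0.05 (adjusted p = 0.23).

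On chromosome 17 these genes lie intermixed with class II. In mm9 order, Psmb9, Tap1, Psmb8 and Tap2 have probes between 34319174 and 34352309, with H2-DMb1 just before (34297168) and H2-Ob, H2-Ab1, H2-Aa and H2-Eb1 just after (34380833 onward). Their differences were 0.12, 0.01, -0.19 and -0.15, and 0.08, while those of H2-Ab1, H2-Aa and H2-Eb1 were between 0.29 and 0.49. The difference of the H2-Ab1 group did not extend to these neighbours at the same size.

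Of the 4 names counted in neither class, H2-D4 differed by -0.23 (adjusted p = 0.037). Its probe lies at chr17:35400857-35400910 on the plus strand, the same strand as the H2-D1 probes (35403132 onward, mm9). The class I counts and medians do not include it. H2-Ke2 (now Pfdn6, a prefoldin subunit) differed by -0.10 (adjusted p = 0.11), H2-Ke6 by -0.08 (adjusted p = 0.082) and H2-gs10 by 0.03 (adjusted p = 0.41). RefSeq names H2-gs10 as H2-Q4, a Q-region class I gene. Counted with class I, it gives 23 of 25 probes below 0 and a median that stays at -0.14.

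The 18 probes that were not kept covered H2-Ea, H2-Eb2, H2-Ob, H2-Bl, H2-M1, H2-M9, H2-M11, H2-M10.1, H2-M10.3, H2-M10.4, H2-M10.5, H2-M10.6, H2-Q1, H2-T3 and H2-T24. Of these, 4 were well above background on 1 cKO array each (H2-M10.4, H2-Q1, and 1 probe each of H2-Bl and H2-T24), and the rest on none. H2-M10.4 read -4.43 and -8.32 on the cKO arrays, so its duplicates did not agree. H2-Q1 read -6.22 and -6.05 in cKO, against -7.37 and -7.19 in WT, and was the 1 member called when no filter was set. Signals this low carry no order.

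Promoters were searched because class II and class I genes are switched through shared short motifs. Of the 34 kept gene names, 23 had a promoter in the RefSeq table (GRCm38.p6), running from 250 bases before to 50 after the start. The Y box CTGATTGG, bound by NF-Y in class II promoters, was searched on both strands and was present in 4.10% of all 32851 promoters. It was present in 3 of 8 class II promoters (H2-Aa, H2-Eb1 and H2-Oa), 5 of 10 class I promoters (H2-D1, H2-K1, H2-Q7 and H2-T23) and those of Psmb9 and Tap1, which share a start region and so 1 match. The kappa B site of class I promoters, searched as 10 letters on both strands, was present in 0.323% of all promoters, in 4 of 10 class I promoters (H2-D1, H2-K1 and H2-Q7) and in 0 of 8 class II promoters. The core of the interferon-stimulated response element, likewise 10 letters on both strands, was present in 3.44% of all promoters, in those of H2-T22, H2-T23 and B2m, and in 0 of 8 class II promoters. A match is a description of letters and not of binding.

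The 250 bases before the start are shown for 2 class II genes that differed and 1 class I gene that did not pass the test, so that the motifs, in capitals, can be compared. H2-Aa lies within chr17:34287774-34288073 on the minus strand, H2-Eb1 within chr17:34305617-34305916 on the plus strand and H2-D1 within chr17:35262844-35263143 on the plus strand. The H2-D1 Y box stands on the opposite strand, and its 2 kappa B matches overlap.
H2-Aa promoter: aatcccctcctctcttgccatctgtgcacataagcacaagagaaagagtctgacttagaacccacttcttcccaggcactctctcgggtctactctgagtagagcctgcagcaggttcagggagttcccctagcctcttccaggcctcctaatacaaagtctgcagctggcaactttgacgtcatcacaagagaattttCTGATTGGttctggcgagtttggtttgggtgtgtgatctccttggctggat
H2-Eb1 promoter: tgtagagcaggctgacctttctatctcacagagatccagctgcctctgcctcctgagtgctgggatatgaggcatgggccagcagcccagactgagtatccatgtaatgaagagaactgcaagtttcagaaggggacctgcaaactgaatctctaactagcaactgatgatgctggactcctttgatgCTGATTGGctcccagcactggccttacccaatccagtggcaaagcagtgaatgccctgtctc
H2-D1 promoter: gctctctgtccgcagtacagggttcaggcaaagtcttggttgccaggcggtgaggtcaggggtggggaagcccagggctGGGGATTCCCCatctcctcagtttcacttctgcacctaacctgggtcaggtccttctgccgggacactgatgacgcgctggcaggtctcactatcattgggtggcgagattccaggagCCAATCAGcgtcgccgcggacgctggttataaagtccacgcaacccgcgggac

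The Y box of H2-Aa lies 51 bases and that of H2-Eb1 62 bases before the start. H2-Aa and H2-Eb1 were higher in cKO, while H2-D1, which holds the same letters in reverse 53 bases before its start, was not.

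Other genes that feed or trigger these molecules were counted from lists, with 1 probe per gene. For these lists and the marker lists below, the background by adjusted p was 19.2% higher and 31.1% lower over all kept probes. Of 16 measured genes of class I loading and general peptide supply, 1 was called lower: Psme3, a proteasome activator subunit, read 1.91 and 1.99 in cKO, against 2.56 and 2.58 in WT (-0.62, adjusted p = 0.004). By adjusted p alone 14 were lower and 1 higher, with a median of -0.23. The 13 measured genes of class II and endosomal processing had none called (1 higher and 5 lower by adjusted p, median -0.07). Among them Ctsd, an aspartic protease of the lysosome, differed by -0.07 and Ctsb, a lysosomal cysteine protease, by -0.17.

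MHC-like class Ib molecules had 7 measured, none called, with 2 higher by adjusted p and a median of 0.09. Of 15 inducers of MHC such as the interferon-gamma receptor and the Jak kinases, none was called, 2 were higher and 4 lower by adjusted p, and the median was -0.06. Of 20 interferon targets, 2 were called lower: Irgm2, an interferon-inducible GTPase, differed by -0.74 (adjusted p = 0.002) and Rsad2, the antiviral protein viperin, by -0.59 (adjusted p = 0.003). By adjusted p alone 4 were higher and 11 lower, with a median of -0.18. Chosen after their values were seen, the interferon-gamma induced chemokines Cxcl9 and Cxcl10 were among the 4 higher, at 0.42 and 0.40. Of 8 measured factors linked to immune privilege of the hair bulb, none was called (1 higher, 2 lower by adjusted p, median -0.11).

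Markers of cells that carry class II were measured in the same fit. All 5 Langerhans cell markers were measured and none was called. Cd207 (langerin), the defining one, read 1.301 and 1.12 in cKO, against 0.86 and 0.77 in WT, a difference of 0.39 (SE 0.080, limma adjusted p = 0.029). Epcam, Itgae and Ly75, named here after their values were seen, differed by 0.41, 0.28 and 0.50 and passed the adjusted p, and Csf1r, which macrophages share, differed by -0.09 (adjusted p = 0.10). Their summed signal, on the same linear scale, was 12.1 and 11.6 in cKO and 11.3 and 11.1 in WT, of which Csf1r gave 7.40 and 7.16 in cKO and 7.75 and 7.69 in WT. None of the 5 was at background, and Epcam is also made by hair follicle epithelium. Their part in the class II result was not tested.

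Dendritic cell markers had 10 of 11 on the array, all measured, with a median of 0.00 and 2 higher and 3 lower by adjusted p. Their summed signal was 5.48 and 5.44 in cKO and 5.29 and 5.32 in WT. Macrophage markers had 13 of 13 measured, with a median of -0.11, 1 higher and 7 lower by adjusted p, and Fcgr1, a high-affinity antibody receptor, called lower (-0.65, adjusted p = 0.003). Their sum was 183 and 181 in cKO and 197 on both WT arrays. The 6 pan-leukocyte markers had a median of -0.22 with 4 lower by adjusted p, and a sum of 20.4 and 20.3 in cKO, against 22.9 and 23.5 in WT.

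B cell markers were near background: 6 of 8, with Ms4a1, Cd79a and Pax5 among them, were not kept, and the sum of the other 2 was 0.41 on both cKO arrays, against 0.39 and 0.37 in WT. Of 6 NK cell markers 4 were measured, with Klrb1c called lower (-0.81, adjusted p = 0.013), Ncr1 and Gzmb not kept, and a sum of 0.39 on both cKO arrays, against 0.53 and 0.48 in WT. T cell markers had 11 of 12 measured, with a median of 0.14 and 3 higher and 1 lower by adjusted p. Their sum was 25.7 and 25.9 in cKO and 26.7 and 27.3 in WT, of which Thy1, also made by other skin cells, gave 22.9 and 23.1 in cKO and 24.3 and 24.8 in WT. The other 10, Cd4 among them, summed to 2.88 and 2.85 in cKO, against 2.39 and 2.53 in WT. Cd4, the co-receptor for class II, read -1.32 and -1.31 in cKO, against -5.32 and -5.19 in WT. Neither WT array had Cd4 well above background, so it passed the filter only through cKO, the group where it was higher. Its call as higher is thus a description without a test. Cd4 is also 1 of the 3 counted higher. The brighter Cd8a probe was likewise well above background on neither WT array. It differed by 0.30 (limma adjusted p = 0.25) with overlapping groups, while another kept Cd8a probe differed by 3.08. The T cell median of 0.14 includes Cd4 and Cd8a, and no sum without them was computed. Cd3e, Cd3d and Cd3g, the defining T cell genes, differed by 0.27, -0.16 and -0.12, and 1 of them, Cd3g, passed the adjusted p (0.043). The part of these cells in the class I and class II differences was not tested.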

How the data were processed

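The data were 4 one-colour Agilent arrays, 2 per pool. Per the file headers, spots were quantified with Feature Extraction 10.7.3.1, which recorded the spot intensity after background subtraction and detrending, and probe positions are on mm9. The authors' deposited processed values equalled that intensity over a constant for each array, a linear ratio, with medians of 0.101 and 0.0983 for cKO and 0.0987 and 0.101 for WT. They were an alternative here. Slide and scan were the same for all 4, so no batch could be fitted.

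From the deposited intensity, log2 was taken and the array's 75th percentile subtracted, which was 1403 and 1453 for cKO and 1271 and 1316 for WT. Spots marked non-uniform or as population outliers were missing, control spots were left out and spots of a probe were averaged. Between 62.1% and 69.1% of spots were well above background, and none was saturated. Probes kept their scanner names for the member rule, and other names were updated through a RefSeq table, by accession for 26682 probes, by symbol for 5195, by an older symbol for 951, with 8346 unchanged. Gene models of mm9 were not used, so exons are not assigned to probes.

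All kept probes were fitted at once with limma 3.58.1 in R 4.3.3 (lmFit, eBayes, two-sided, Benjamini-Hochberg). Python 3.11.15, pandas 2.3.3 and data.table version 1.17.8 served for tables. A simulation drew 26063 probes around their measured means, with spreads shuffled between probes, and changed 50 probes each by 1.3-, 1.5-, 2- and 4-fold. Of these, 22%, 50%, 70% and 84% passed the adjusted p, and 0%, 30%, 70% and 84% were called, with 3 false calls. No other probe was changed, whereas 19.2% of kept probes were higher and 31.1% lower by adjusted p in the data. The adjusted p was therefore harder to pass in the simulation, and its percentages do not measure detection in these data. The number of arrays limits the precision.

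The members, gene lists and tests were chosen with earlier results of these data known. All members could be named. From a list, up to 4 called genes, or where none was called the 2 brightest, and markers at background were named, and other genes were chosen after their values were seen. The same-numbered arrays of the groups did not deviate together (r = -0.02), so the numbers were not taken as pairs. Alternatives were other background corrections, scalings and probe filters, 1 probe or the mean of probes per gene, a replicate block, and each array left out, where the fit assumes that a lone array varies like the other group.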

Additional observations from a re-analysis of the deposited data

How the results depend on the processing

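Of 56 members under 12 processing alternatives, the 1 reversal between passing values was the discordant H2-Q10 probe, at -0.13 with the mean of the gene's probes, which averages it with 4 others by construction. All probes called lower numbered 654 after normexp and quantile normalization and 827 with the mean of probes. Members called numbered 1 under quantile normalization (H2-Eb1) and 1 with no filter on dim probes (H2-Q1). Members past the adjusted p were higher in 19 cases under quantile normalization, and in 7 with 1 probe per gene and 7 with the mean of probes, where fewer values were tested. Members lower numbered 7 after normexp and quantile normalization, 8 under quantile normalization, 1 with no filter and 7 with the mean of probes. They numbered 20 on probes above background on all 4 arrays and 25 with trend and robust moderation. With the replicate block, 9 members and 6 class I probes were lower, and 10 members and 9 class II probes were higher, at fewer residual degrees of freedom. Class II probes higher numbered 6 of 8 with 1 probe per gene and 6 with the mean of probes, against 10 of 14 in the fit used above. Class I probes lower numbered 6 after normexp and quantile normalization, 0 with no filter, 6 of 12 with 1 probe per gene and 3 with the mean of probes. They numbered 12 on probes above background on all 4 arrays and 15 with trend and robust moderation, against 10 of 24 in the fit used above.

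The class I median was -0.0024 after normexp and quantile normalization, -0.012 under quantile normalization, -0.11 when scaled on probes above background on all arrays and -0.18 with no filter. The class II median was 0.46, 0.36 and 0.19 under the last 3 of these, 0.29 on probes above background on all 4 arrays, 0.24 with 1 probe per gene and 0.30 with the mean of probes. With 1 array left out, members higher numbered 7 to 9, members lower 1 to 7, class II probes higher 6 to 8, class I probes lower 0 to 5, and the class I median ran between -0.15 and -0.13. Where no construction is named, the cause was not tested. For probes near background, such as H2-DMb2 and H2-M10.2, the signal over background limits the precision.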
